A study of Mus musculus with 10 samples.

Results

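Copper is carried through a cell by a short relay of proteins, and the 10 genes of that relay are described here: the transporters Slc31a1, Slc31a2, Atp7a and Atp7b, the copper chaperones Atox1 and Ccs, the copper enzyme gene Sod1, the metallothioneins Mt1 and Mt2, and the metal-sensing factor Mtf1. They were picked by name from the 52636 genes of the count table, and all 10 passed the filter on low counts among 15916 tested genes. The cells were mouse leukaemic progenitors of a model called DIN, made by transducing fetal liver cells with MSCV vectors for DNMT3A R882H, IDH2 R140Q and NRAS G12D and passaged as frozen cells from sick animals into female Ptprca recipient mice that had sub-lethal irradiation. All 4 groups carry the 3 vectors. Recipients ate and drank doxycycline, which shuts down the DNMT3A R882H vector (off), or received normal food and water (on), for 5 or 14 days. Cells with surface cKit and without Cd11b were then sorted from marrow and spleen and profiled with 3′ end RNA sequencing. The labels give 4 libraries at day 14 off and 2 libraries each at day 14 on, day 5 off and day 5 on. They name neither the organ nor the animal of a library, so p-values measure the spread between these libraries, which may be technical. No library had doxycycline without the regulated vector, so an effect of the drug itself and that of the vector cannot be told apart.

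In background, Slc31a1 (CTR1) is the high-affinity copper importer of the plasma membrane and Slc31a2 (CTR2) is its relative on internal membranes. Atox1 hands copper to the ATPases Atp7a and Atp7b, which load secreted enzymes and pump out excess copper, while Ccs hands it to the superoxide dismutase Sod1. Metallothioneins are small cysteine-rich proteins that bind copper and zinc, and Mtf1 is the zinc-sensing transcription factor that switches them on through metal response elements in their promoters. The title of the series asks about heme synthesis and cuproptosis, a cell death driven by copper. Only RNA levels of the copper relay are described here, and these counts measure neither copper nor cell death.

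Total counts per library ran from 9292644 to 14340624. Levels are given as CPM, the count of a gene scaled to the size of its library with TMM factors. Dnmt3a ran from 31.9 to 39.2 CPM in the day 14 off libraries and from 55.9 to 73.6 in the day 14 on libraries. At day 5 it ran from 50.2 to 65.6 CPM off and from 51.2 to 52.8 CPM on. A 3′ tag of the vector may lie outside the mouse gene, and Dnmt3a is therefore no check of the labels. Kit, the gene of the sort marker cKit, was present in all libraries, at 30.9 to 98.1 CPM over the 4 groups, and Itgam, which encodes Cd11b, was at 2.07 to 21.9 CPM.

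At day 14 the metallothioneins, Sod1, Ccs and Atp7b rose in the cells with the vector off, while the importer Slc31a1 differed little between groups. Of the 10 copper genes 5 were called higher and 0 lower (edgeR adjusted p under 0.05 over all tested genes). Over all tested genes 31.8% were called at day 14, with 16.9% higher and 14.9% lower. The median log2 fold change of the 10 genes was 0.65, against 0.01 over all tested genes. In 6 of the 10 every off library was above every on library, as it was in 27.9% of all tested genes, and in 0 of the 10 was every off library below (24.6%). Without day 14 off replicate 1 or without replicate 2 the count of copper genes was 3, and those still called were Sod1, Mt1 and Mt2. Of all tested genes 3887 of 15777 and 3951 of 15790 were called in those fits, against 5063 of 15916 with all libraries.

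**Figure D1:**
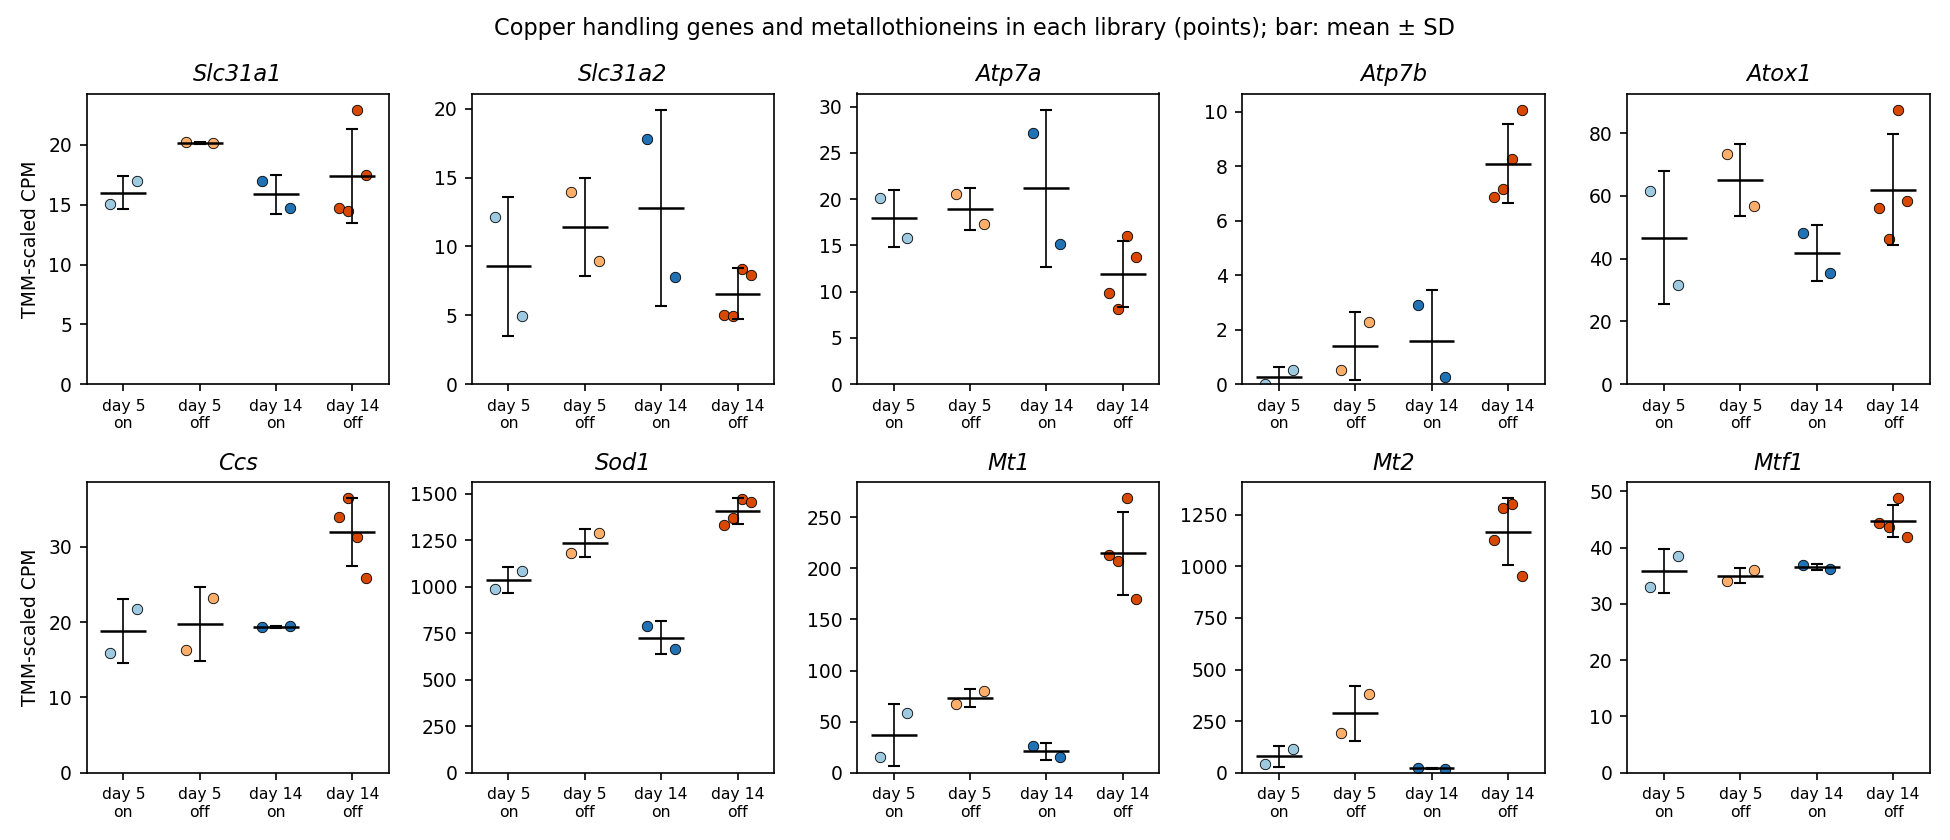
TMM-scaled CPM of the 10 copper genes (vertical axes, each from 0) in each library (points) of the 4 groups, with the mean and SD of each group as bars. Mt1, Mt2, Sod1, Ccs, Atp7b and Mtf1 (the last without a call) are highest in all 4 day 14 off libraries. Slc31a1 lies between 14.5 and 22.9 CPM in every group.

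Neither importer was called, although Slc31a2 was called lower at day 14 in 3 of 17 alternatives. Slc31a1 (ENSMUSG00000066150, chromosome 4, 62360727 to 62391769, mm10) was at 14.7, 14.5, 22.9 and 17.5 CPM in day 14 off replicates 1 to 4 and at 17.0 and 14.7 CPM at day 14 on. The groups overlapped, with a log2 change of 0.14 ± 0.20 (SE, 95% interval -0.31 to 0.59, edgeR adjusted p = 0.646). At day 5 it was 20.2 and 20.1 CPM off and 15.1 and 17.0 CPM on, groups that did not overlap but differed by 0.33 ± 0.23 without a call (edgeR adjusted p = 0.561). Slc31a2 (ENSMUSG00000066152, chromosome 4, 62262562 to 62298411) was at 5.00, 4.98, 8.40 and 7.91 CPM at day 14 off against 17.8 and 7.77 CPM at day 14 on. Its day 14 change of -0.96 ± 0.42 did not pass (edgeR adjusted p = 0.108), and the 2 day 14 on libraries lay further apart than the off group was wide. Without day 14 on replicate 2 the change was -1.44 and was called (edgeR adjusted p = 0.0452), and without replicate 1 it was -0.27 (0.744). At day 5 its levels were 13.9 and 8.93 CPM off and 12.1 and 4.96 CPM on, a change of 0.43 ± 0.50 (edgeR adjusted p = 0.735).

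Of the copper-exporting ATPases, Atp7b rose at day 14 and Atp7a lay at the threshold. Atp7b (ENSMUSG00000006567, chromosome 8, 21992785 to 22060305, minus strand), the ATPase best known from liver, was at 6.86, 7.18, 8.26 and 10.1 CPM at day 14 off and at 2.90 and 0.271 CPM at day 14 on. Those values rest on 81 to 120 counts off and on 28 and 3 counts on. All 4 off libraries were above both on libraries, and the log2 change was 2.38 ± 0.78 (edgeR adjusted p = 0.0411). The call of Atp7b was lost without any of the 4 day 14 off libraries (adjusted p = 0.0643 to 0.0836) and without day 14 on replicate 2, when the change was 1.48 (adjusted p = 0.169), and without day 14 on replicate 1 the change was 4.81. At day 5 Atp7b had 5 and 28 counts off, and 0 and 7 counts on. The count of 0, in day 5 on replicate 1, allows up to 0.323 CPM (3 counts of the total, counting error only), and the difference was not called (2.20 ± 1.15, edgeR adjusted p = 0.415).

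Atp7a (ENSMUSG00000033792, chromosome X, 106027276 to 106124926), the more broadly expressed ATPase, was called lower at day 14 under some settings only. It was at 9.91, 8.13, 16.0 and 13.7 CPM off and at 27.2 and 15.2 CPM on, so that day 14 off replicate 3 overlapped the on libraries. The change of -0.82 ± 0.29 lay just outside the threshold (edgeR adjusted p = 0.0522), and it was called lower in 10 of 17 alternatives. These included DESeq2 (adjusted p = 0.0271), RLE scaling (edgeR adjusted p = 0.0425), both other filters on low counts (0.0397 and 0.00219) and the fit without ribosomal RNA locus genes (0.0479). Without day 14 on replicate 1, the higher of the on libraries, it was -0.38 (edgeR adjusted p = 0.476), and without on replicate 2 it was -1.18 (0.0251). It was also called lower without day 14 off replicate 3 (0.0238), day 5 on replicate 1 (0.0415) or day 5 on replicate 2 (0.0454). At day 5 its levels were 20.5 and 17.3 CPM off and 20.1 and 15.8 CPM on, with a change of 0.08 ± 0.34 (edgeR adjusted p = 0.944).

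Of the chaperones, Ccs rose and Atox1 had no call. Ccs (ENSMUSG00000034108, chromosome 19, 4825366 to 4839332, minus strand), which inserts copper into Sod1, was at 34.0, 36.4, 31.3 and 25.9 CPM at day 14 off. At day 14 on it was at 19.3 and 19.4 CPM, below every off library. The log2 change was 0.72 ± 0.21 (edgeR adjusted p = 0.0221). That call was lost without day 14 off replicate 1 (adjusted p = 0.0642), off replicate 2 (0.0668), on replicate 1 (0.133) or on replicate 2 (0.0996), with changes of 0.63 to 0.73. At day 5 Ccs was 16.3 and 23.2 CPM off and 15.8 and 21.8 CPM on, levels that overlap those of day 14 on (0.07 ± 0.24, edgeR adjusted p = 0.928).

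Atox1 (ENSMUSG00000018585, chromosome 11, 55446641 to 55461239, minus strand), the chaperone that serves the ATPases, was at 56.2, 46.2, 87.4 and 58.3 CPM at day 14 off and at 48.1 and 35.4 CPM on. Day 14 off replicate 3 was the highest and replicate 2 fell between the on libraries. The change was 0.57 ± 0.31 (95% interval -0.11 to 1.25, edgeR adjusted p = 0.185). At day 5 the values were 73.2 and 56.9 CPM off and 61.6 and 31.7 CPM on, a change of 0.48 ± 0.35 (edgeR adjusted p = 0.565).

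Sod1 (ENSMUSG00000022982, chromosome 16, 90220754 to 90226329), the cytosolic copper-zinc superoxide dismutase and the client of Ccs, rose with it at day 14. It was at 1329, 1369, 1468 and 1457 CPM off and at 790 and 663 CPM on, a log2 change of 0.95 ± 0.12 (edgeR adjusted p = 3.30e-04). The call held in each of the 17 alternatives run, with changes of 0.83 to 1.05. At day 5 Sod1 was at 1181 and 1288 CPM off and at 987 and 1086 CPM on, groups that did not overlap but differed by 0.25 ± 0.14 without a call (edgeR adjusted p = 0.423). The 4 groups thus stood in the order day 14 on, day 5 on, day 5 off and day 14 off, with no overlap between neighbours. Part of the last 300 bases of Sod1 transcripts (18.3% of its 50-base words) also occurs in the gene model Gm8566, and how reads with several matches were counted is not given in the sources used here.

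Metallothioneins had the largest day 14 changes, off over on, among the 10 genes. Mt2 (ENSMUSG00000031762, chromosome 8, 94172664 to 94173568) was at 1129, 1283, 1302 and 952 CPM at day 14 off and at 24.0 and 19.96 CPM at day 14 on. Every off library thus stood far above both on libraries, and the log2 change was 5.73 ± 0.49 (95% interval 4.64 to 6.82, edgeR adjusted p = 6.60e-05). By size of rise Mt2 had rank 47 among all tested genes. Mt1 (ENSMUSG00000031765, chromosome 8, 94179082 to 94180327), whose start lies 5514 bases beyond the end of Mt2, was at 213, 207, 268 and 170 CPM off and at 26.4 and 15.3 CPM on, a log2 change of 3.37 ± 0.49 (edgeR adjusted p = 8.42e-04, rank 210). Both calls held in each of the 17 alternatives run, at 3.02 to 3.78 for Mt1 and 5.603 to 5.837 for Mt2.

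The promoter windows of the metallothionein genes are shown because metal response elements are the sites through which Mtf1 acts on them. The sequences are from RefSeq (GRCm38.p6, plus strand, 5′ to 3′), and capitals mark the core letters TGCACNC or TGCGCNC on either strand. The first and last hold the 250 bases before the RefSeq start of each gene (Mt1 at chr8:94178839-94179088 and Mt2 at chr8:94172368-94172617), and the short one holds the 30 bases from the Mt1 start on (chr8:94179089-94179118).
Mt1: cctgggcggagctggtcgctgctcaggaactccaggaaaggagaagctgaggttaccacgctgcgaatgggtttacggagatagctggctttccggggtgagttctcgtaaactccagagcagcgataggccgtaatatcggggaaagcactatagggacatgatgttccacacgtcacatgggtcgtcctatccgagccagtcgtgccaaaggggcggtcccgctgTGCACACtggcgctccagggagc
Mt1 start: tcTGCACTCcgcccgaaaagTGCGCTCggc
Mt2: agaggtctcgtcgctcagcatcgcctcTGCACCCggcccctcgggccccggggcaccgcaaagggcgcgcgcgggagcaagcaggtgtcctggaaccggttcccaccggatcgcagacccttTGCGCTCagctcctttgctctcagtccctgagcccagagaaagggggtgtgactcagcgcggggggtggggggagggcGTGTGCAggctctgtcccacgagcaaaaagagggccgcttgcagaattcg
In windows from 250 bases before to 50 bases after the start, the core letters matched 3 times in Mt1 and 4 times in Mt2. At least 3 matches stood in 1.97% of 32851 such windows of mouse genes, and at least 1 in 25.7%. Of the 10 copper genes 9 had a window, and Atp7a had 2 matches, Atp7b and Slc31a2 had 1 each, and Slc31a1, Atox1, Sod1 and Mtf1 had 0. The antioxidant response core TGACNNNGC matched once each in Mt2, Sod1, Atox1 and Slc31a2 (at least 1 match in 12.4% of windows), and the GATA letters AGATAA or TGATAA matched in none of the 9 (18.6% of windows). A match is a description of letters and no site of binding. GENCODE places other starts of Mt1 122 and 152 bases beyond the RefSeq start, and those of Mt2 46 and 242 bases beyond it, so these windows need not cover the promoters in use.

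**Figure D2:**
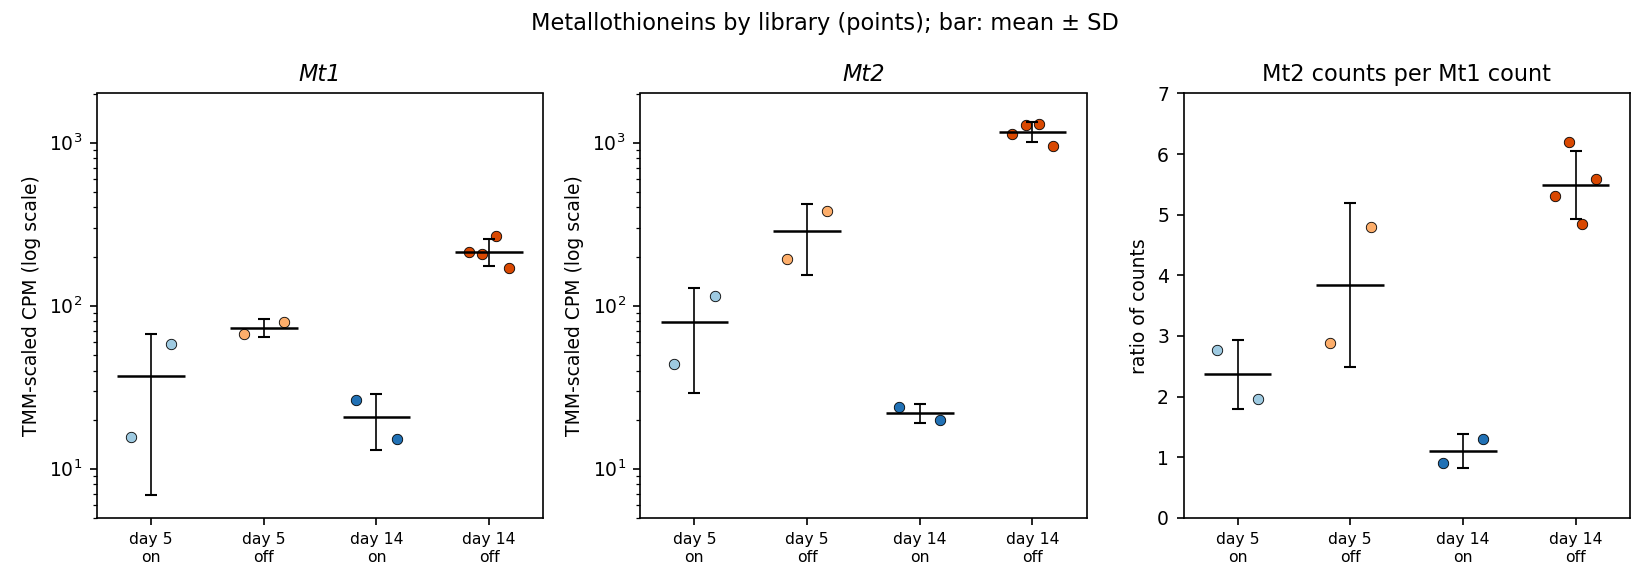
TMM-scaled CPM of Mt1 and Mt2 on log axes, and the ratio of Mt2 to Mt1 counts on a linear axis, in each library (points) of the 4 groups, with group means and SD as bars. Mt2 spans 19.96 to 1302 CPM and its ratio to Mt1 is 4.85 to 6.20 in the day 14 off libraries and 0.91 and 1.31 in the day 14 on libraries.

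At day 5 the metallothioneins were already higher in both off libraries, without a call. Mt2 was at 194 and 382 CPM off and at 43.6 and 114 CPM on, a change of 1.86 ± 0.42 (edgeR adjusted p = 0.0961). DESeq2 called this change (adjusted p = 7.75e-04), and edgeR called it without day 5 off replicate 1 (2.27, adjusted p = 0.0486). Mt1 was at 67.1 and 79.7 CPM off and at 15.7 and 58.2 CPM on, a change of 0.98 ± 0.48 (edgeR adjusted p = 0.383). The day 5 on libraries differed from each other in both genes, with replicate 2 above replicate 1. Without day 5 on replicate 1 the day 5 changes were 1.31 for Mt2 and 0.31 for Mt1, and without replicate 2 they were 2.75 and 2.25.

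The levels of Mt2 fell into an order without overlap: day 14 on, day 5 on, day 5 off, day 14 off. For Mt1 the on groups overlapped each other, and the off groups followed in the same order above them. Mt2 spread wider than Mt1. The ratio of Mt2 to Mt1 counts was 5.30, 6.20, 4.85 and 5.59 in the day 14 off libraries, against 0.91 and 1.31 on. Day 5 gave ratios of 2.89 and 4.79 off, against 2.77 and 1.97 on. On the log2 scale the ratio was 2.32 higher off than on at day 14 (exact permutation test, two-sided p = 0.0667, the smallest p that 15 regroupings allow) and 0.67 higher at day 5 (exact permutation p = 0.333, the smallest that 6 allow). The last 300 bases of Mt1 and Mt2 transcripts share no 50-base word with each other, whereas 18.4% of such words of Mt2 lie in the antisense gene Gm45774.

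Gm45774 overlaps the exons of Mt2 on the opposite strand, and its counts were 19.1% to 26.3% of those of Mt2 in every library. Its level was 213 to 284 CPM in the day 14 off libraries against 5.70 and 4.34 CPM on, with day 5 levels of 49.8 and 76.9 CPM off against 11.5 and 21.9 CPM on. Its changes were 5.64 ± 0.34 at day 14 (edgeR adjusted p = 1.65e-05) and 1.91 ± 0.30 at day 5 (edgeR adjusted p = 0.0340), so that it was called at day 5 where Mt2 was not. The strand setting of the counting is not given in the sources used here, and reads of Mt2 and of its antisense partner cannot be told apart.

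Mtf1 (ENSMUSG00000028890, chromosome 4, 124802104 to 124849800), the regulator of the metallothioneins, moved little beside them. It was at 44.5, 43.6, 48.7 and 42.0 CPM at day 14 off and at 37.0 and 36.2 CPM on. The off libraries were all above the on libraries, but the change of 0.29 ± 0.13 was not called (95% interval 0.00 to 0.57, edgeR adjusted p = 0.115). At day 5 it was 34.0 and 36.0 CPM off and 33.0 and 38.6 CPM on (-0.04 ± 0.15, edgeR adjusted p = 0.942). Mtf1 overlaps exons of 1110065P20Rik on the opposite strand, whose counts were 38.8% to 50% of those of Mtf1.

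**Figure D3:**
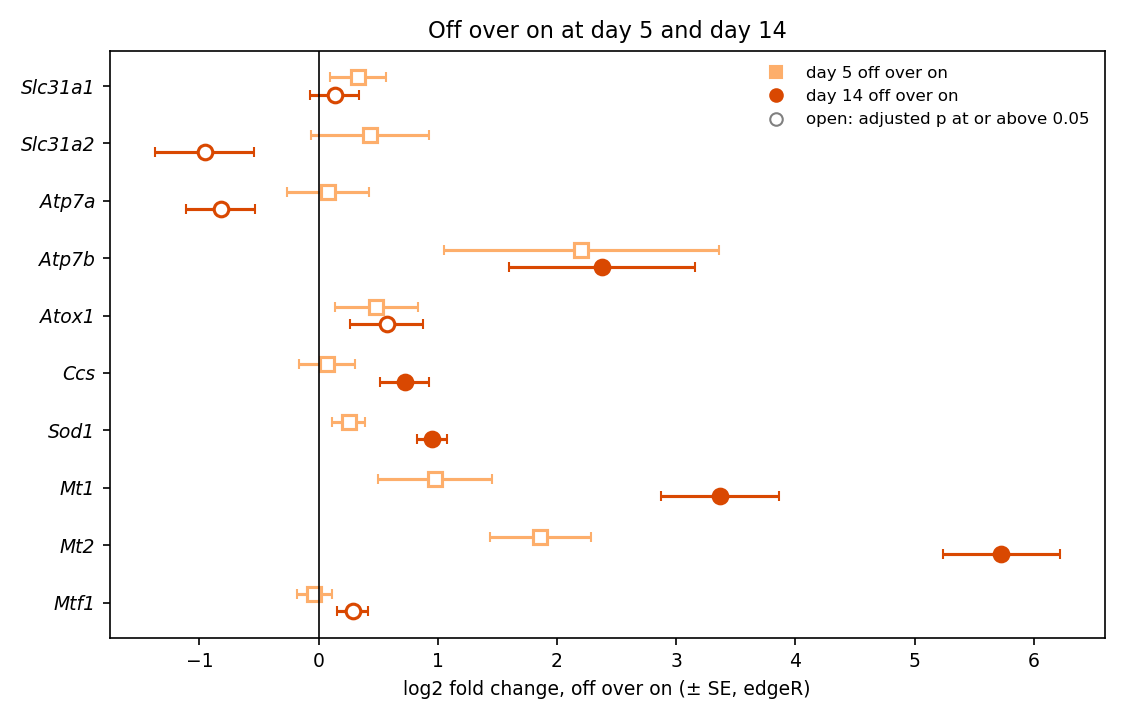
Log2 fold change, off over on, of the 10 copper genes at day 5 (squares) and day 14 (circles) with SE as bars, filled where the edgeR adjusted p was under 0.05. No day 5 value is filled, and at day 14 the filled ones are Atp7b, Ccs, Sod1, Mt1 and Mt2.

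At day 5 edgeR called 0 of the 10 copper genes, against 0.484% of all tested genes (0.371% higher, 0.113% lower). At an unadjusted p under 0.05 there was 1, Mt2 (14.9% of all tested genes), and DESeq2 called 1 (2.97%). In 4 of the 10, Slc31a1, Sod1, Mt1 and Mt2, both off libraries were above both on libraries, as in 19.3% of all tested genes, and in 0 of the 10 were both below (20.9%). The test of the difference between days called 1 of the 10, Mt2, whose off over on change was 3.87 ± 0.58 larger at day 14 than at day 5 (edgeR adjusted p = 0.0136). Over all tested genes 3.06% were called in that test, 1.65% higher and 1.41% lower. Without day 14 on replicate 2 the difference of Mt2 was 3.74 and was not called. Without day 5 on replicate 1 Mt1 and Sod1 were called as well as Mt2. The number of calls over all tested genes fell in the first of these fits and rose in the other. With all libraries the difference was 2.39 ± 0.65 for Mt1 (edgeR adjusted p = 0.0753) and 0.70 ± 0.18 for Sod1 (0.0603). It was 0.65 ± 0.31 for Ccs (0.237), 0.32 ± 0.20 for Mtf1 (0.349), 0.17 ± 1.77 for Atp7b (0.966) and 0.09 ± 0.46 for Atox1 (0.933). It was -0.19 ± 0.31 for Slc31a1 (edgeR adjusted p = 0.758), -0.90 ± 0.45 for Atp7a (0.258) and -1.39 ± 0.65 for Slc31a2 (0.232).

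The comparisons between days share their libraries with those above. In the off cells 3 of the 10 copper genes were higher at day 14 than at day 5 and 0 were lower, while 17.0% of all tested genes were called (10.1% higher, 6.94% lower). In 6 of the 10 all day 14 off libraries were above both day 5 off libraries (24.2% of all tested genes), and in 2, Slc31a2 and Atp7a, all were below (21.5%). Mt2 was 2.02 ± 0.39 higher (edgeR adjusted p = 0.00834), Mt1 1.55 ± 0.44 higher (0.0379) and Ccs 0.69 ± 0.21 higher (0.0438). The call of Mt2 was lost without day 5 off replicate 1, when its change was 1.60. Without day 14 off replicate 1, 2 or 3 the count was 1 of the 10. Of all tested genes 1566 of 15777, 1717 of 15790 and 2131 of 15813 were called in those fits, against 2706 of 15916 with all libraries. The call of Mt1 was lost without any 1 of the 6 off libraries (1.41 to 1.68), and that of Ccs in 7 of the 10 fits that leave out a library. Atp7b had a change of 2.48 ± 0.78 (edgeR adjusted p = 0.0540), Mtf1 of 0.35 ± 0.13 (0.0871) and Sod1 of 0.19 ± 0.12 (0.309). Changes of -0.79 ± 0.42 for Slc31a2 (edgeR adjusted p = 0.223), -0.66 ± 0.29 for Atp7a (0.146), -0.21 ± 0.20 for Slc31a1 (0.515) and -0.07 ± 0.30 for Atox1 (0.906) were not called.

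In the on cells edgeR called 0 of the 10 between days, against 2.32% of all tested genes (0.968% higher, 1.36% lower), with 2 at an unadjusted p under 0.05 (20.4% of all tested genes) and 2 called by DESeq2 (7.14%). Both were Sod1 and Mt2, which were lower at day 14 than at day 5 in the on libraries, without overlap (23.1% of all tested genes were so lower and 20.6% so higher, against 2 and 0 of the 10). Mt2 had a change of -1.85 ± 0.43 (edgeR adjusted p = 0.0563, DESeq2 adjusted p = 8.03e-04) and Sod1 of -0.51 ± 0.14 (edgeR adjusted p = 0.0700, DESeq2 adjusted p = 0.0204). Without day 5 on replicate 1 the change of Mt2 was -2.38 and was called (edgeR adjusted p = 0.0305), and without replicate 2 it was -0.95. The day 14 off over on values of these genes are therefore set against on libraries that were themselves below those of day 5. Mt1 had a change of -0.84 ± 0.49 (edgeR adjusted p = 0.371), which was 0.44 without day 5 on replicate 2, and Atp7b of 2.30 ± 1.16 (0.296). The others were within 0.60 of 0 on the log2 scale, with edgeR adjusted p = 0.537 for Slc31a2 (0.60 ± 0.50), 0.744 for Atp7a (0.24 ± 0.34), 0.846 for Atox1 (-0.16 ± 0.35), 0.979 for Slc31a1 (-0.02 ± 0.24), 0.956 for Ccs (0.04 ± 0.24) and 0.939 for Mtf1 (0.03 ± 0.15).

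Further copper genes came from 3 lists, whose called shares are to be read against the 31.8% of all tested genes. Of the 11 genes that bring copper to mitochondria and to complex IV, the copper-containing cytochrome oxidase, 5 were called higher at day 14 and 0 lower (median 0.38). By rule the named ones are Chchd7 at 1.17 ± 0.21 (edgeR adjusted p = 0.00201), Cmc2 at 0.90 ± 0.17 (0.00242) and Coa5 at 0.69 ± 0.14 (0.00457), which are assembly factors of that complex. Chchd7 averaged 24.5 ± 3.70 CPM in 4 off libraries (SD), against 10.9 ± 1.81 CPM in 2 on libraries. Of 11 genes of copper reduction and trafficking 6 were tested, with 1 called higher and 1 lower (median 0.06). Steap3, a metalloreductase of the endosome, rose by 3.85 ± 0.28, its mean being 19.0 ± 2.55 CPM in 4 off libraries (SD) against 1.30 ± 0.08 CPM in 2 on libraries, and Xiap, an apoptosis inhibitor that also acts on copper homeostasis, changed by -0.86 ± 0.17. Of 17 copper-dependent secreted or membrane enzymes 6 were tested, with Loxl3 (1.60 ± 0.20) and Loxl2 (0.58 ± 0.18) called higher and 0 lower. Both are lysyl oxidases that crosslink matrix, and Loxl3 overlaps Htra2 on the opposite strand, so its counts cannot be told from those of Htra2. Loxl2 likewise overlaps Gm27177. Counting both directions, the called shares of the trafficking and enzyme lists were near the background of 31.8%, while 16.9% of all tested genes were called higher. At day 5 edgeR called 0 of the 23 tested genes of these 3 lists, with 4 at an unadjusted p under 0.05 (14.9% of all tested genes) and 1 called by DESeq2 (2.97%).

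Zinc transporters were looked at because metallothioneins also hold zinc. Of 6 tested zinc exporters of the SLC30 family, Slc30a9 (0.45 ± 0.13) was called higher and Slc30a4 (-2.93 ± 0.39) lower at day 14. Slc30a4 averaged 1.07 ± 0.62 CPM in 4 off libraries (SD), against 8.46 ± 0.21 CPM in 2 on libraries. Slc30a1, a known target of Mtf1 and named here after its value was seen, had a change of 0.55 ± 0.28 (edgeR adjusted p = 0.156). Of 12 tested zinc importers of the SLC39 family 1 was called higher and 2 lower. Slc39a8, which imports zinc and manganese, rose by 2.39 ± 0.36, and Slc39a6 and Slc39a1 changed by -1.79 ± 0.23 and -0.38 ± 0.13. Both zinc lists lay near the background of 31.8% in their share of called genes.

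Part of the other redox enzymes rose at day 14 beside Sod1. Of 16 enzymes of superoxide and peroxide removal 8 were called higher and 0 lower (median 0.47), against 16.9% higher and 14.9% lower over all tested genes. Prdx4 rose by 2.06 ± 0.18, Prdx6 by 1.77 ± 0.23 and Prdx3 by 1.21 ± 0.20, all of them peroxiredoxins, which reduce peroxides. Prdx4 was also the list's 1 called gene at day 5 (1.03 ± 0.19, edgeR adjusted p = 0.0491). Of 10 tested NRF2 response genes 3 were called higher and 0 lower, Nqo1 (4.84 ± 0.71), Gclm (2.39 ± 0.25) and Srxn1 (2.18 ± 0.49). Counting both directions this share was near the background of 31.8%, of which 16.9% was higher and 14.9% lower. The median log2 change of the 10 genes was 0.61. Their mean log2 CPM was 3.57 to 3.84 at day 14 off and 2.63 in both on libraries. At day 5 it was 2.73 and 3.44 off and 2.25 and 2.26 on. Gclm shares exons with the gene models Gm6061 and Gm17494, so its counts are uncertain. Glucocorticoids are textbook inducers of metallothioneins, and their part in the metallothionein levels was not tested. Of 11 glucocorticoid response genes 0 were called higher and 5 lower at day 14 (median -0.85), against 16.9% higher and 14.9% lower over all tested genes. Zbtb16 changed by -2.54 ± 0.38, Cdkn1c by -3.83 ± 0.64 and Tsc22d3 by -1.92 ± 0.45. Between days in the off cells 3 of the 11 were called higher at day 14 and 1 lower (median 0.02), against 10.1% higher and 6.94% lower over all tested genes. The list summed to 1277 CPM in day 14 off replicate 3, within the 1210 to 1445 CPM of the day 14 on libraries. Day 14 off replicates 1, 2 and 4 summed to 583, 442 and 429 CPM. Tsc22d3 was at 167 CPM in that replicate 3 and at 70.4, 46.6 and 53.1 CPM in replicates 1, 2 and 4.

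**Figure D4:**
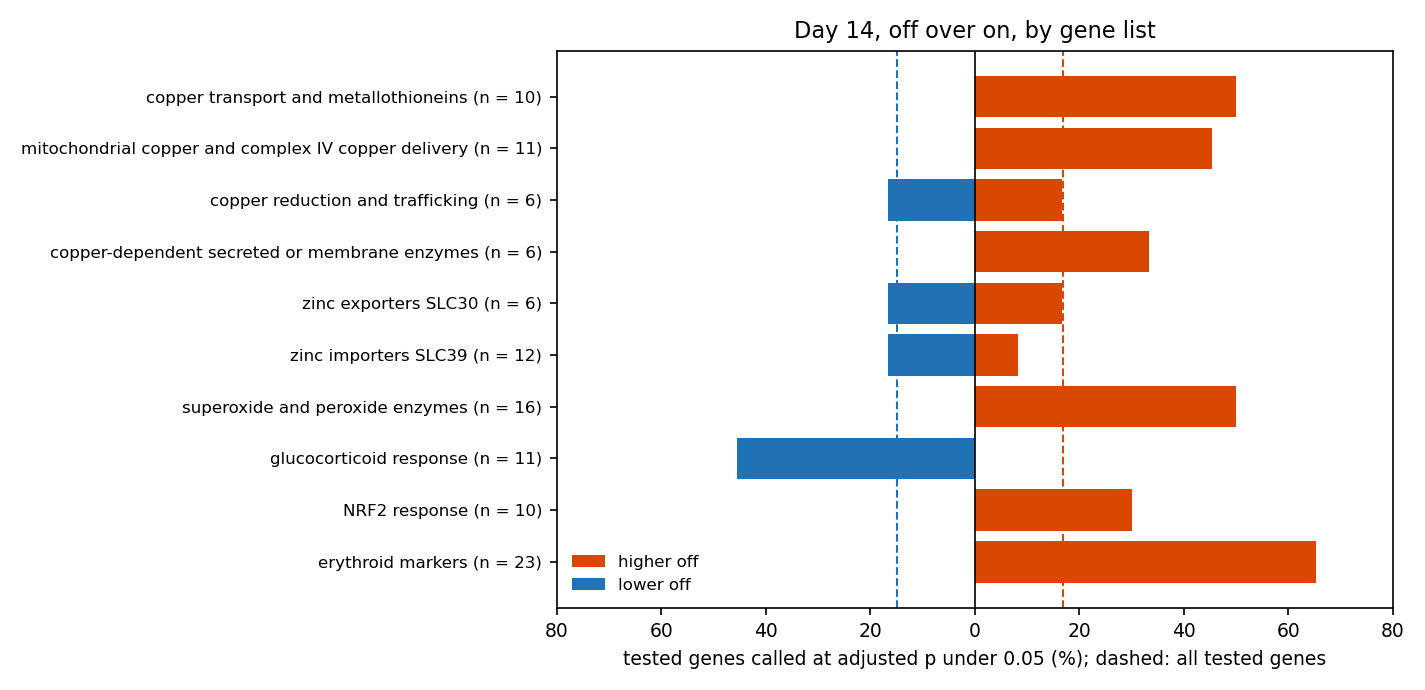
Share of tested genes called higher (right, orange) or lower (left, blue) at day 14, off over on, in each gene list, in percent, with the shares over all tested genes (16.9% and 14.9%) as dashed lines. The copper genes stand at 5 of 10 higher and the glucocorticoid list at 5 of 11 lower.

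At day 14 markers of red cell precursors, like the metallothioneins, were higher off than on. Between days in the off cells both were higher at day 14. There edgeR called 17 of the 23 erythroid genes higher and 0 lower (median 2.24), against 10.1% higher and 6.94% lower over all tested genes. Mt2 changed by 2.02 and Mt1 by 1.55 in that comparison, both called. Between days in the on cells the directions differed. The median log2 change of the 23 erythroid genes, day 14 over day 5, was 0.87 (edgeR called 0, against 2.32% of all tested genes). Mt2 changed by -1.85 and Mt1 by -0.84 there, also without an edgeR call. At day 14 edgeR called 15 of the 23 tested erythroid genes higher and 0 lower (median 2.82), against 16.9% higher and 14.9% lower over all tested genes. Among those called were Ermap (5.26 ± 0.49), Epor (4.18 ± 0.44) and Car1 (6.65 ± 0.65), and none of the 23 was at 0 in every library. Their summed level was 4526 to 5767 CPM in the day 14 off libraries against 1718 to 2446 on, with day 5 sums of 1224 to 2796 off against 1584 to 3700 on. At day 5 edgeR called 3 of the 23 higher and 0 lower, against 0.371% higher and 0.113% lower over all tested genes. The 3 were Car1 (3.66 ± 0.59, edgeR adjusted p = 0.0374), Epor (2.91 ± 0.54, 0.0481) and Rhag (4.14 ± 0.66, 0.0363), the last named after its value was seen. The erythroid sum did not order the day 5 groups, whereas the mean log2 CPM of the 23 genes did, at 3.31 and 4.77 off and 2.58 and 2.90 on. At day 14 that mean was 6.17 to 6.36 off and 3.54 and 3.40 on. The part of erythroid cells in the copper gene results was not tested, and in such bulk samples fewer cells of a type and less RNA per cell cannot be told apart. The day 14 counts of called markers that follow are also to be read against 16.9% higher and 14.9% lower over all tested genes. Summed granulocyte markers were 811 to 1148 CPM at day 14 off and 1219 to 2080 CPM on (4 of 12 lower, 0 higher), and monocyte and macrophage markers 53.1 to 86.9 and 70.3 to 122 CPM (4 of 10 lower, 0 higher). Stroma and endothelium markers summed to 57.3 to 81.7 CPM off and 137 to 235 CPM on, and mast cell markers to 2.71 to 5.16 and 10.7 to 22.7 CPM, with Tpsb2 at 0 in every library. B cell markers summed to 7.87 to 10.7 CPM off and 7.14 to 10.99 CPM on, with T and NK cell markers at 93.5 to 138 and 79.5 to 102 CPM and megakaryocyte markers at 43.4 to 68.5 and 52.4 to 63.9 CPM. Of the tested markers 1 of 3 was called higher and 1 lower for stroma and endothelium, 0 higher and 2 of 4 lower for mast cells, 1 of 7 higher and 2 lower for T and NK cells, and 2 of 8 higher and 2 lower for megakaryocytes. For B cells edgeR and DESeq2 called 0 of 5, with 0 at an unadjusted p under 0.05. Progenitor markers summed to 436 to 473 CPM off and 745 to 1233 CPM on, with 4 of 7 called lower, among them Cd34 (-4.78 ± 0.60), Sox4 (-3.28 ± 0.38) and Kit (-1.44 ± 0.12). Sox4 overlaps Gm26735 on the opposite strand.

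The genes closest to the metallothioneins in pattern were found by the root mean square difference of log2 CPM, each gene centred on its own mean, over the 10 libraries and 8364 candidate genes, with gene models of Gm or Rik names left out. They were Cenpv (0.54), Ank1 (0.57), Pla2g12a (0.65), Cd59a (0.66) and Tada2a (0.67 in log2 units), against a median of 1.86 over the candidates. Of 937 gene models left out 2 were closer than Tada2a, 1 of them Gm45774, the antisense partner of Mt2, at 0.44, below all 5 named genes. Mt1 and Mt2 differed from each other by 0.91 on this measure. Ank1, the ankyrin of the red cell membrane skeleton, averaged 63.7 ± 1.61 CPM in the 4 day 14 off libraries (SD) against 6.45 ± 2.61 on, with day 5 means of 17.4 ± 1.13 off against 5.76 ± 4.17 on (2 libraries each). Cenpv was 33.4 ± 5.00, 2.57 ± 1.34, 13.4 ± 0.08 and 3.58 ± 0.18 CPM in the same groups. The 5 genes were chosen for this likeness, so their levels are a description with no test.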

How the data were processed

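RNA of 10 libraries was sequenced from polyA RNA with a QuantSeq 3′ kit as single-end reads on a NextSeq500, per the labels' protocols. Tools named in the submitters' processing notes are edgeR 3.34.0, limma 3.48.3, Subread 2.0.0, featureCounts, HISAT2 2.0.4, cutadapt 1.14 and bcl2fastq 2.17.1.14, with build mm10. Not given in the sources used here were their settings, the strand and the annotation release. The values are raw whole-number counts, deposited by the authors as 1 table by Ensembl gene. Symbols and mm10 positions came from GENCODE M21, which matched 52489 of 52636 IDs.

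The analysis of these counts used edgeR 4.0.16 under R 4.3.3: filterByExpr, TMM scaling, a robust quasi-likelihood fit with 1 mean per group over all 10 libraries, and Benjamini-Hochberg adjustment over all tested genes. The SE of a log2 change is its size divided by the root of the F statistic. DESeq2 1.42.0 was an alternative, beside other scalings, filters, fits and leaving out each library. The copper genes and lists were chosen with earlier results of these data known. Named are all 10 copper genes, up to 3 called genes of smallest p per list at day 14, and the 5 nearest in pattern (no Gm or Rik gene models). The erythroid gene Ahsp was not analysed here, and list genes below the filter were not tested.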

Additional observations from a re-analysis of the deposited data

Results flagged for a closer look

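Mt2 was the copper gene whose response to turning the vector off differed between days in the interaction test. Its log2 change, off over on, was 3.87 larger at day 14 (5.73 ± 0.49) than at day 5 (1.86 ± 0.42), with an edgeR adjusted p = 0.0136 (4 and 2 libraries at day 14, 2 and 2 at day 5). Mt2 was higher off than on at both days in all libraries, and it was lower at day 14 on (24.0 and 19.96 CPM) than at day 5 on (43.6 and 114 CPM). Over 16 alternatives the difference ranged from 2.96 to 4.45, and it was not called without day 14 on replicate 2 (3.74, edgeR adjusted p = 0.0525). No copper gene had a library standing apart from the other 3 at day 14 off by Dixon's test.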

How the results depend on the processing

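Mt1, Mt2 and Sod1 were called higher at day 14 in each of 17 alternatives; the other calls depended on a library or a setting, and the cause was not tested. Leaving out 1 library at a time, the number of copper genes called was 3 to 6 at day 14, 0 to 1 at day 5, 0 to 4 between days off, 0 to 1 between days on and 0 to 3 for the difference between days. With no filter on low counts (29010 genes tested) these numbers were 8, 3, 6, 3 and 3, and of all genes 5605, 992, 3421, 1275 and 1957 were called. DESeq2 called 6, 1, 4, 2 and 3, against 32.9%, 2.97%, 20.1%, 7.14% and 8.34% of all tested genes. The count of all genes called was 2985 to 5738 at day 14 and 0 to 304 at day 5 when 1 library was left out, and at day 5 it was 992 without the filter, 472 with DESeq2 and 0 when only the compared groups were fitted, against 77. Between days on, 370 genes were called with all libraries, 1275 without the filter, 1136 with DESeq2, 0 with the compared groups alone and 0 to 680 without 1 library. For the difference between days the numbers were 487, 1957, 1327 and 106 to 965 (no fit of compared groups alone), and between days off 2706 and 601 to 3409 without 1 library.

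Same-numbered libraries deviated from their group means with correlations of 0.03 to 0.33 across genes, and the labels do not say that a number pairs libraries. With the replicate number as a block, 6 copper genes were called at day 14 (4 higher, 2 lower), 0 at day 5, 4 between days off (2 higher, 2 lower), 0 between days on and 3 for the difference between days (1 higher, 2 lower). The lower ones each time were Slc31a2 and Atp7a. Of all 15916 tested genes the block called 5196 at day 14, 225 at day 5, 3032 between days off, 1014 between days on and 1521 for the difference. Under the block Atp7b at day 14 was 2.171 (edgeR adjusted p = 0.133), Mt1 between days off was 1.53 (0.131), and changes of sign were Slc31a1 at day 14 (-0.12) and the day difference of Atp7b (-0.029) and Atox1 (-0.22).

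All values that changed sign belonged to changes that were not called. Between days in the on cells Slc31a1 (-0.02) was 0.0029 with RLE scaling, 6.0e-05 without the ribosomal RNA locus genes, 0.010 without the filter and 0.0020 with DESeq2. Leaving out 1 library, it ranged from -0.10 to 0.11, Slc31a2 from -0.082 to 1.36, Atp7a from -0.21 to 0.60, Atp7b from -0.15 to 7.15, Atox1 from -0.52 to 0.39, Ccs from -0.17 to 0.33, Mt1 from -1.49 to 0.44 and Mtf1 from -0.078 to 0.19. At day 5 Slc31a2 ranged from -0.064 to 1.17, Atp7a from -0.062 to 0.23, Ccs from -0.21 to 0.35 and Mtf1 from -0.17 to 0.11. Slc31a1 at day 14 ranged from -0.044 to 0.21, Atox1 between days off from -0.29 to 0.11, and the day difference from -0.48 to 0.44 for Atox1 and from -4.69 to 2.61 for Atp7b. Without day 5 on replicate 2 the only day 5 on library has 0 counts of Atp7b, so its fitted value depends on the prior count. A group left with 1 library is assumed to vary like the others. A count of 0 allows up to 0.209 to 0.323 CPM over the libraries.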
